A study of Homo sapiens with 12 samples.

Results

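The proteasome subunit genes were read in MDA-MB-231 cells, an established line from a metastatic breast carcinoma, on whole-genome expression arrays. Members were the probe sets (groups of probes summarised to 1 value) with a single gene symbol made of PSMA, PSMB, PSMC, PSMD or PSME and a number, without PSMB8 and PSMB9. They numbered 67 of 54675 probe sets and covered 35 of 19775 named genes. By role, 15 genes encode the core, 17 the cap and 3 other activators. Of 41 subunit genes listed by role, PSMA6, PSMB11, PSMC5, PSMD7, PSMD13 and PSME2 had no such probe set and were not analysed here.

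The 12 arrays fell into 3 groups of 4 replicates, A to D. The control cells carried a retroviral small hairpin RNA against GFP. The shHIF cells carried a retroviral hairpin construct against HIF1a and HIF2a, and the Sharp1 cells overexpressed Sharp1, the repressor encoded by BHLHE41. No source used here names the Sharp1 vector. The GFP hairpin cells were the control of both comparisons. All cells grew in serum-containing DMEM/F12 without treatment. Replicates are labelled biological, without mention of separate cultures. The p-values therefore reflect only array-to-array spread, which may be technical. The series title concerns the breakdown of hypoxia-inducible factors (HIF) promoted by Sharp1, and the question asked here was whether transcripts of the degrading machine differ between the 3 groups.

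The proteasome is the protease that destroys proteins tagged with ubiquitin, and it is made by every nucleated cell. Its core is a barrel of outer alpha rings and inner beta rings, and PSMB5, PSMB6 and PSMB7 carry the catalytic sites. The regulatory cap binds tagged proteins, removes the ubiquitin, and unfolds and feeds the chain into the barrel through a ring of ATPases. Activators of the PSME family open the barrel without ubiquitin. In oxygenated cells, HIF alpha subunits are hydroxylated, tagged by the VHL ubiquitin ligase and degraded by this machine.

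Promoter windows were read for the members because Sharp1 and its relatives bind E-boxes of the letters CACGTG, and HIF binds sites with the core ACGTG or GCGTG. RefSeq windows (GRCh38.p14) of 300 bases, 250 before and 50 after the start of the gene, matched 30 of the 35 genes. PSMA7, PSMB1, PSMB6, PSMB7 and PSMD4 were not matched. For 3 genes with several windows, the first listed was read. Both strands were searched, and every CACGTG also holds the HIF core. CACGTG occurred in 3 of 30 windows (10.0%), against 7.43% of 27305 windows of the same length. The HIF core occurred in 16 of 30 (53.3%, against 48.4%). The letters TGACNNNGC, bound by the proteasome gene activator NFE2L1 and its relative NFE2L2, occurred in 9 of 30 (30.0%, against 13.6%). These matches describe the letters of the windows and are not binding sites.

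The window of PSMD10 is shown because it had the largest difference of any member, and those of PSMB3, PSMD9 and PSME3 because they hold the E-box. Each line gives the 250 bases before the start, 5′ to 3′ on the gene's strand. The capitals mark the HIF core in PSMD10 and CACGTG in the others. The windows lie at chrX:108091543-108091792 (minus strand) for PSMD10, chr17:38752491-38752740 (plus) for PSMB3, chr12:121888540-121888789 (plus) for PSMD9 and chr17:42833147-42833396 (plus) for PSME3. The first capital stands 27 bases before the start in PSMD10, 238 in PSMB3, 131 in PSMD9 and 42 in PSME3.
PSMD10: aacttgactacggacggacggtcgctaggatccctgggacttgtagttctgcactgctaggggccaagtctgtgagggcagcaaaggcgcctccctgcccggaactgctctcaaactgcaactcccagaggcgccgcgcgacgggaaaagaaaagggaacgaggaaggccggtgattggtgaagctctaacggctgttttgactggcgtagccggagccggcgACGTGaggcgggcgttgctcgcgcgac
PSMB3: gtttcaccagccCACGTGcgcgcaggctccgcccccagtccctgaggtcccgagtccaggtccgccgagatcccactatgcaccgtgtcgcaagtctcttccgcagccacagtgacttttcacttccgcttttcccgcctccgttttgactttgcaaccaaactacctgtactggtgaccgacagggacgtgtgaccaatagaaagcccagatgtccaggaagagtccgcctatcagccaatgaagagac
PSMD9: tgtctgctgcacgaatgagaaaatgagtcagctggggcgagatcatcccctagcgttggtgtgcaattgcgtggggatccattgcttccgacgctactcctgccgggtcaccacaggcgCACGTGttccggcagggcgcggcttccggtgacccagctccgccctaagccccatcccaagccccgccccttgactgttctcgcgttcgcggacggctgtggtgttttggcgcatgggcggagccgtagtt
PSME3: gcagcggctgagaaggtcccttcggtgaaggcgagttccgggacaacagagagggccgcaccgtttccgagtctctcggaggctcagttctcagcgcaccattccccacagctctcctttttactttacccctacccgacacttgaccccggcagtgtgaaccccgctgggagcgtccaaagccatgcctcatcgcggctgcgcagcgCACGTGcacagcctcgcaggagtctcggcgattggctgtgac

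All values are log2 signals, and differences are differences of group means on that scale. Each gene was read on the probe set with the highest mean, and was called when limma's adjusted p over all 19775 genes was under 0.05. Of the 35 genes, 34 had a mean of at least 9.09, and 18 had a mean above 12, a level that 2.99% of all genes passed. The exception was PSMA8, a core alpha subunit known from testis, at 2.82. It was below the median probe set (5.41) and was not called in any comparison. The SD within a group had a median of 0.04 over the members. Because bright genes are called more often, the share called among the 5011 genes with a mean of at least 9 is given beside that of all genes.

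The targeted transcripts were as follows. EPAS1 (HIF2a) on its brightest probe set spanned 9.48 to 9.60 in control, 6.40 to 6.83 in shHIF and 8.81 to 8.85 in Sharp1. HIF1A spanned 12.75 to 12.80 in control, 11.99 to 12.10 in shHIF and 12.82 to 12.94 in Sharp1. Of 4 BHLHE41 probe sets, 1 spanned 3.82 to 3.95 in control and 8.87 to 9.56 in Sharp1, and another 4.22 to 4.67 and 5.46 to 6.35, so that both rose. The brightest in control spanned 6.41 to 6.88 there and 4.33 to 4.69 in Sharp1, and the dimmest differed by -0.13. All 10 markers fixed for MDA-MB-231 cells read above the median probe set, between means of 10.8 and 14.4. So did 7 of 10 luminal, 3 of 7 leukocyte and 3 of 8 fibroblast markers, with highest means of 11.5, 8.25 and 7.51. The markers were read on their brightest probe sets, and the median over genes read in that way was 6.59, above the median probe set (5.41). Most genes therefore pass the median probe set, and these counts are not read as expression of a cell type. Spike-in signal was 10.4 on shHIF arrays A and D and 10.6 to 10.8 on the other 10. The difference of actin signal between the 3′ and 5′ ends, which grows with RNA degradation, reached 0.90 to 0.94 on shHIF arrays A to C. It stood at 0.62 on shHIF D, 0.59 to 0.74 in control and 0.56 to 0.85 in Sharp1.

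Read on their brightest probe sets, proteasome transcripts changed little when Sharp1 was overexpressed, and some dimmer probe sets given below differed more. Against control, limma called 7 of 35 genes higher and 6 lower, or 37.1%, where 27.2% of all genes and 49.4% of the genes with a mean of at least 9 were called. The share of the members lay between these backgrounds. Among all genes 15.3% were higher and 11.8% lower. Groups did not overlap for 14 members (40.0%), against 28.9% of all genes and 51.2% of the genes with a mean of at least 9. The median difference was -0.01 over the members, -0.002 over all genes and 0.02 over the genes with a mean of at least 9. No member reached a 2-fold difference, which 1.68% of all genes reached with a call. The members' differences ran from -0.38 to 0.24. Of the 13 calls, PSMB4, PSMB5, PSMB10 and PSME1 held under all 21 alternative settings. The differences by role are shown in the plot of all 35 genes.

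**Figure D1:**
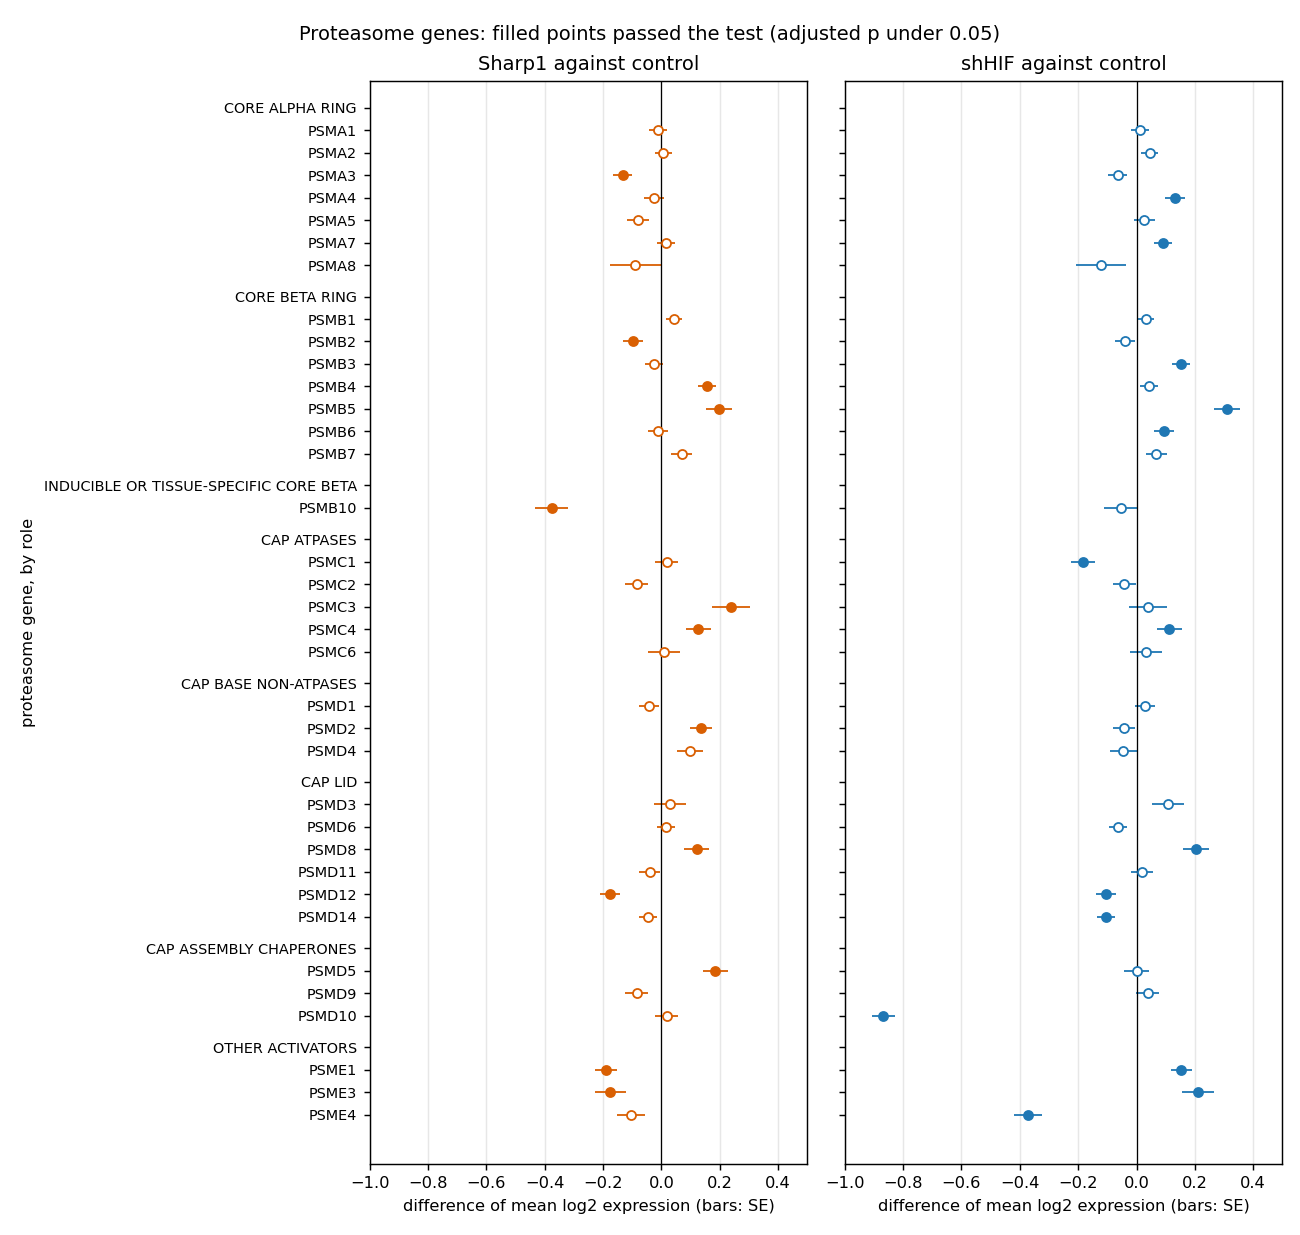
Difference of mean log2 expression from control for the 35 proteasome genes, grouped by role, in Sharp1 cells (left) and shHIF cells (right). Points are differences, bars are SE, and filled points had an adjusted p under 0.05. Most points lie near zero, with PSMB10 at -0.38 in Sharp1 cells and PSMD10 at -0.87 in shHIF cells standing farther out.

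In the core, the alpha ring had 1 of 7 genes called in Sharp1 cells (14.3%) and the beta ring 3 of 7 (42.9%). The backgrounds were 27.2% of all genes and 49.4% of the genes with a mean of at least 9. PSMB5, the catalytic subunit with chymotrypsin-like activity, read 11.82, 11.69, 11.78 and 11.91 on control arrays A to D and 11.95, 12.08, 12.00 and 11.94 on Sharp1 arrays. All 4 Sharp1 arrays lay above all 4 control arrays. The rise was 0.20 (SE 0.04, limma adjusted p = 0.000957), or 1.15-fold. PSMB4, a structural beta subunit, read 12.81, 12.85, 12.80 and 12.82 in control and 12.92, 13.04, 12.98 and 12.96 in Sharp1, again without overlap. It rose by 0.16 (SE 0.03, limma adjusted p = 0.000274). A second PSMB4 probe set rose by 0.24, and the dimmest differed by 0.04.

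PSMA3, an alpha subunit, read 12.67, 12.66, 12.66 and 12.65 in control and 12.50, 12.52, 12.57 and 12.53 in Sharp1, and fell by 0.13 (SE 0.03, limma adjusted p = 0.00269). Its other 2 probe sets had means of 5.36 and 4.93, and with the mean of all 3 the difference was 0.04 (adjusted p = 0.692). PSMB2, a structural beta subunit, fell by 0.10 (adjusted p = 0.0351), a call lost when any of 7 arrays was left out. Those were control A, C or D (adjusted p = 0.0797, 0.0797 and 0.0782) and Sharp1 A, B, C or D (0.0649, 0.0696, 0.0731 and 0.0589).

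PSMB10, which replaces a constitutive catalytic beta subunit in the immunoproteasome, had the largest difference of any member in Sharp1 cells. It read 9.24, 9.17, 9.20 and 9.34 on the control arrays, 9.17, 9.25, 9.09 and 9.21 on the shHIF arrays, and 8.835, 8.837, 9.003 and 8.768 on the Sharp1 arrays. Every Sharp1 array lay below every array of the other groups, while control and shHIF overlapped. The fall against control was 0.38 (SE 0.06, limma adjusted p = 9.57e-06), or 1.30-fold. Against shHIF it was 0.32 (adjusted p = 4.71e-05).

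In the cap, 5 of 17 genes were called higher in Sharp1 cells and 1 lower, or 35.3%, beside 27.2% and 49.4% in the same backgrounds. PSMC3, an ATPase, read 11.82, 11.70, 11.74 and 11.91 in control and 11.87, 12.31, 11.99 and 11.95 in Sharp1. Sharp1 array B was the highest and array A lay inside the control range. The difference was 0.24 (SE 0.07, limma adjusted p = 0.00673), and 0.14 without Sharp1 B. PSMD2, a base scaffold, rose by 0.14 (adjusted p = 0.00854) with overlapping groups. PSMC4, an ATPase, and PSMD8, of the lid, rose by 0.13 and 0.12 (adjusted p = 0.0287 and 0.0412), and the adjusted p reached 0.118 for PSMC4 and 0.158 for PSMD8 over the alternatives. PSMC4 lost its call without control B or C (adjusted p = 0.0915 and 0.118) or Sharp1 B or C (0.0744 and 0.0719). PSMD8 lost its call without control A, B or C (0.0719, 0.151 and 0.119) or Sharp1 B, C or D (0.158, 0.0879 and 0.0734).

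PSMD5, a chaperone that helps assemble the cap base, read 10.15, 10.19, 10.15 and 10.11 in control and 10.36, 10.25, 10.34 and 10.36 in Sharp1. These did not overlap, and the rise was 0.18 (SE 0.04, limma adjusted p = 0.00144). Its other probe set was dim (mean 3.56), and the mean of both differed by 0.11 (adjusted p = 0.298). PSMD12, a lid subunit, read 11.86, 11.83, 11.83 and 11.88 in control and 11.72, 11.61, 11.72 and 11.65 in Sharp1, and fell by 0.18 (SE 0.03, limma adjusted p = 0.000291) on its brightest probe set. The other PSMD12 probe set differed by 0.04 (adjusted p = 0.662 over all probe sets).

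Of the 3 activator genes, 2 fell in Sharp1 cells. PSME1, a subunit of an interferon-inducible activator, read 11.77, 11.71, 11.78 and 11.82 in control, 11.93, 11.94, 11.91 and 11.92 in shHIF and 11.49, 11.60, 11.62 and 11.62 in Sharp1. The 3 groups did not overlap: shHIF was highest and Sharp1 lowest. Against control, PSME1 fell by 0.19 in Sharp1 (SE 0.04, limma adjusted p = 0.000205) and rose by 0.15 in shHIF (adjusted p = 0.00177), and both calls held under every alternative run. PSME3, a nuclear activator, read 10.29, 10.25, 10.22 and 10.38 in control and 10.03, 10.14, 10.14 and 10.13 in Sharp1. It fell by 0.17 (SE 0.05, limma adjusted p = 0.0170), a call lost without control D (adjusted p = 0.0746) or Sharp1 A (adjusted p = 0.0710). The call was also lost without the intensity trend (adjusted p = 0.0760). Its second probe set fell by 0.16, and the dimmer ones differed by -0.01 and 0.0004. With the mean of its probe sets, the difference was -0.09 (adjusted p = 0.145).

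**Figure D2:**
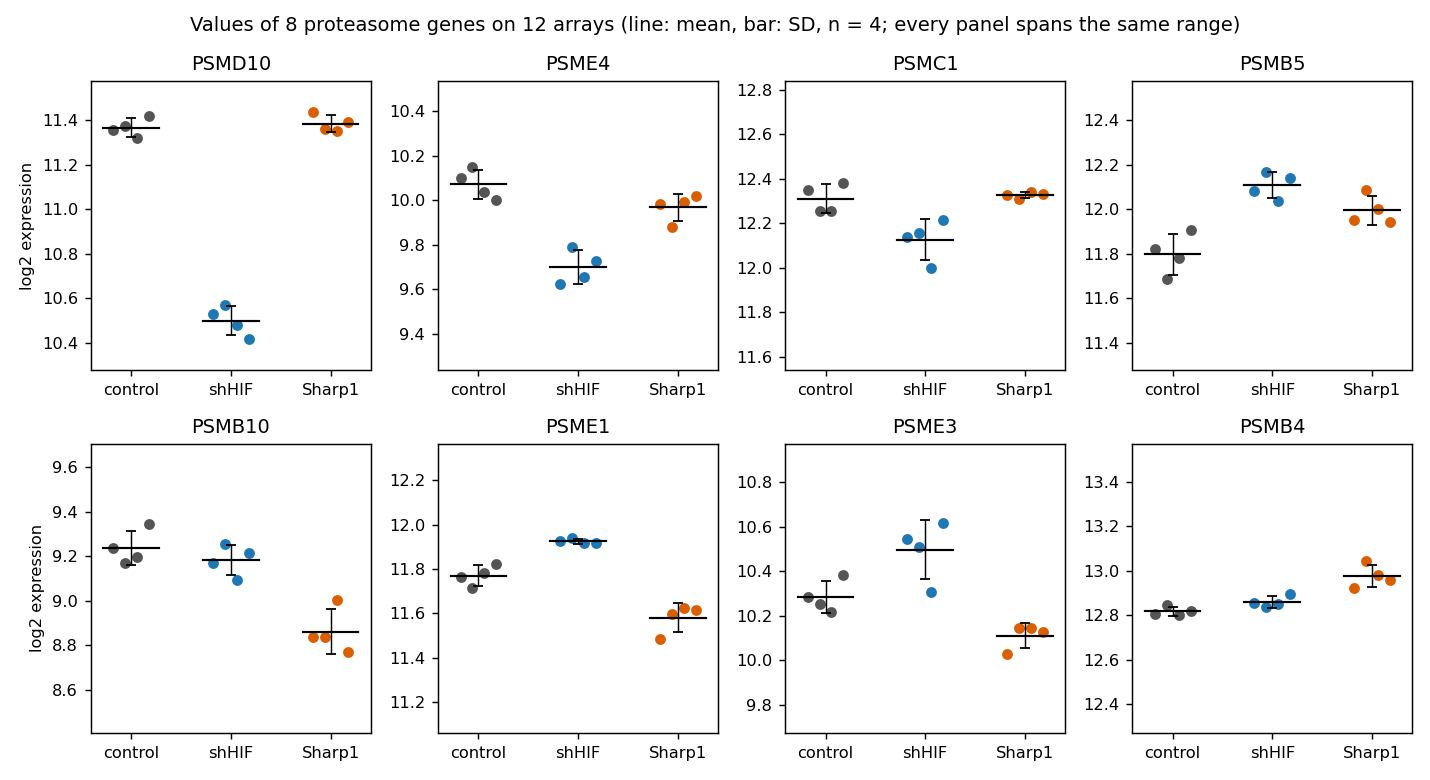
Log2 expression of 8 proteasome genes on each of the 12 arrays, with the mean and SD of each group (n = 4). Every panel spans the same range; PSMD10 and PSME4 are lowest in shHIF, PSMB10 is lowest in Sharp1, and PSME1 separates all 3 groups.

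In HIF-depleted cells, the cap chaperone gene PSMD10 fell by 0.87, and the next largest difference of a member was -0.37 (PSME4). limma called 9 of 35 genes higher and 5 lower than control, or 40.0%, where 30.8% of all genes and 55.2% of the genes with a mean of at least 9 were called. Among all genes 17.6% were higher and 13.2% lower. Groups did not overlap for 12 members (34.3%), against 28.6% and 51.1%. The median difference was 0.03 over the members, 0.05 over all genes and 0.015 over the genes with a mean of at least 9. No member reached a 2-fold difference, which 0.652% of all genes reached with a call. With each array centred on its median, 6 members were higher and 7 lower. The calls of PSMA4, PSMB3, PSMB5, PSMC1, PSMD8, PSMD10, PSME1 and PSME4 held under all 21 alternatives.

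PSMD10 encodes gankyrin, an ankyrin-repeat chaperone of the cap base that is also known as an oncoprotein binding the retinoblastoma protein and MDM2. It read 11.36, 11.37, 11.32 and 11.42 on control arrays A to D, 10.53, 10.57, 10.48 and 10.42 on shHIF arrays, and 11.44, 11.36, 11.35 and 11.39 on Sharp1 arrays. All shHIF arrays lay below every other array, and control and Sharp1 overlapped. In shHIF cells PSMD10 fell by 0.87 (SE 0.04, limma adjusted p = 1.90e-14), which left 54.8% of the control signal, the 127th largest fall among the 19775 genes. In bulk RNA, fewer cells with the transcript and less of it per cell cannot be told apart.

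The second PSMD10 probe set read 11.23, 11.05, 11.07 and 11.24 in control and 10.33, 10.38, 10.24 and 10.44 in shHIF, a fall of 0.80 (SE 0.05). Over the alternatives the difference ran from -0.90 to -0.83. In Sharp1 cells PSMD10 differed from control by 0.02 (adjusted p = 0.826), and it was 0.89 higher in Sharp1 than in shHIF (SE 0.04, limma adjusted p = 2.57e-15). ATG4A, an autophagy protease whose annotation overlaps that of PSMD10, was looked up after these values were seen. ATG4A differed by 0.10 in shHIF cells (limma adjusted p = 0.162) and rose by 0.22 in Sharp1 cells (adjusted p = 0.00355). Other neighbours of PSMD10, PSME4 and PSMB10 were read too. Beside PSMB10, LCAT rose by 0.67 in Sharp1 cells (adjusted p = 3.41e-05) and fell by 0.33 in shHIF cells (adjusted p = 0.0236). VSIG1, GPR75, ACYP2 and CTRL were not called against control. PSMD5 and PSMD9, the other cap assembly chaperones among the members, differed by 0.001 and 0.04 in shHIF and were not called.

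PSME4, an activator known for nuclear and testis functions, read 10.10, 10.15, 10.04 and 10.00 in control, 9.62, 9.79, 9.65 and 9.73 in shHIF and 9.98, 9.88, 9.99 and 10.02 in Sharp1. The shHIF arrays lay below all the others. PSME4 fell by 0.37 in shHIF cells (SE 0.05, limma adjusted p = 1.25e-06), or 1.29-fold, and all 3 of its probe sets fell there, by 0.37, 0.21 and 0.57. In Sharp1 cells it differed by -0.10 on the brightest (adjusted p = 0.129). PSME3 read 10.54, 10.51, 10.31 and 10.62 in shHIF and was 0.21 higher than control (adjusted p = 0.00385), a call lost without shHIF A and D (0.12, adjusted p = 0.126).

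In the core, 5 of 15 genes (33.3%) rose in shHIF cells and 0 fell at an adjusted p under 0.05. Calls covered 30.8% of all genes and 55.2% of the 5011 genes with a mean of at least 9. Of those 5011 genes, 1498 were called higher and 1268 lower. The count of lower core genes was also 0 at an unadjusted p under 0.05, and 0 to 1 under the other settings run. PSMB5 had the largest rise of any member, with 12.08, 12.17, 12.04 and 12.14 on the shHIF arrays, all above the control arrays given earlier. It rose by 0.31 (SE 0.04, limma adjusted p = 3.82e-06), or 1.24-fold. PSMB3, a structural beta subunit, read 12.52, 12.46, 12.50 and 12.53 in control and 12.64, 12.66, 12.63 and 12.69 in shHIF, and rose by 0.15 (SE 0.03, limma adjusted p = 0.000266). PSMA4, an alpha subunit, read 12.34, 12.31, 12.29 and 12.37 in control and 12.47, 12.49, 12.50 and 12.38 in shHIF, and rose by 0.13 (SE 0.03, limma adjusted p = 0.00424). PSMA7 and PSMB6 differed by 0.09 each (adjusted p = 0.0294 and 0.0378), and their adjusted p reached 0.155 and 0.168 over the alternatives, in both cases with arrays centred on their medians. PSMA7 lost its call without control A, C or D (0.0650, 0.0705 and 0.0617) or shHIF B or D (0.0843 and 0.0864), and PSMB6 without control B or D (0.102 and 0.0998) or shHIF B or D (0.103 and 0.0934).

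In the cap, 2 of 17 genes rose and 4 fell in shHIF cells, or 35.3%, beside 30.8% and 55.2% in the same backgrounds. PSMD8, a lid subunit, read 11.70, 11.62, 11.66 and 11.79 in control and 11.85, 11.95, 11.82 and 11.96 in shHIF, without overlap, and rose by 0.20 (SE 0.04, limma adjusted p = 0.000650). PSMC1, an ATPase, read 12.35, 12.26, 12.25 and 12.38 in control and 12.14, 12.16, 12.00 and 12.21 in shHIF, also without overlap, and fell by 0.18 (SE 0.04, limma adjusted p = 0.000966). PSMD14, the enzyme that cuts ubiquitin off the substrate, read 12.33, 12.34, 12.32 and 12.34 in control and 12.26, 12.26, 12.17 and 12.24 in shHIF, a fall of 0.10 (adjusted p = 0.0129). PSMD12 also fell by 0.10 on its brightest probe set (adjusted p = 0.0233, or 0.0580 without control A, 0.0670 without control D and 0.0660 without shHIF A). On its second, all 4 shHIF arrays (9.92 to 10.15) lay below all control arrays (10.41 to 10.52), and the fall was 0.41 (SE 0.05). PSMC4 differed by 0.11 (adjusted p = 0.0478), and the value rose above the threshold without any of 8 arrays, to as much as 0.190 without shHIF B.

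The groups of core, cap and activator genes were then set side by side on each array. For every gene its mean over the 12 arrays was subtracted, and the median over the genes of a group was taken. Core medians were -0.04 to -0.002 in control, 0.01 to 0.09 in shHIF and -0.05 to -0.01 in Sharp1, so that the shHIF arrays lay above the others. Cap medians were -0.02 to 0.05, -0.03 to 0.03 and -0.01 to 0.04, and overlapped. The medians of the 3 activators were -0.04 to 0.09, 0.01 to 0.18 and -0.27 to -0.14, with Sharp1 below the others. The median difference over the 15 core genes in shHIF cells was 0.04, beside 0.05 over all genes and 0.015 over those with a mean of at least 9. With arrays centred, PSMB5 still rose there by 0.28 and PSMA4 by 0.10 (limma adjusted p = 1.02e-05 and 0.0182), and the call of PSMB3 also held.

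**Figure D3:**
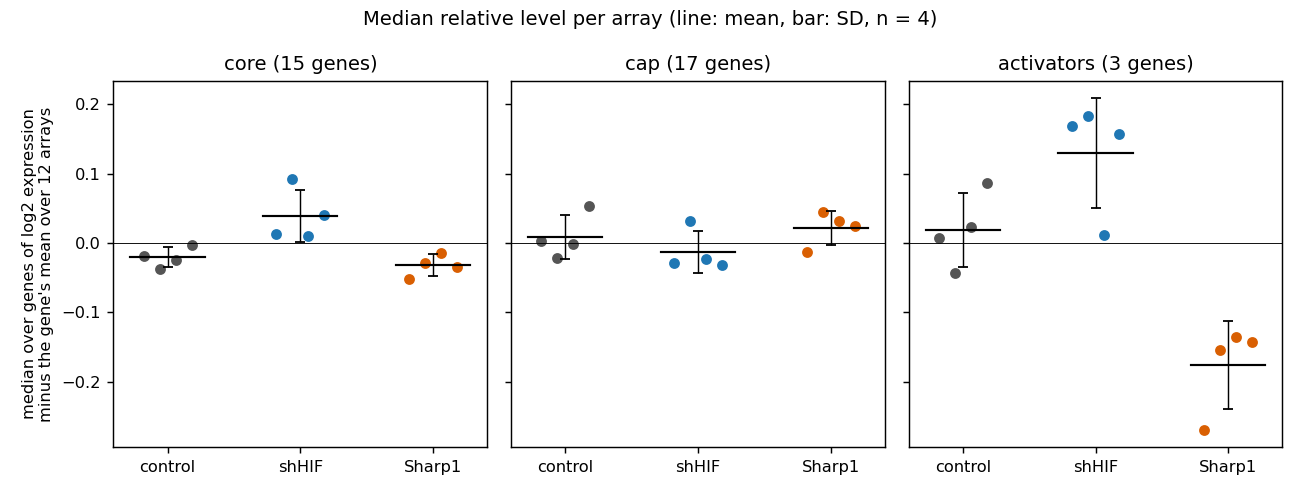
Median over genes of the level relative to each gene's own mean, for the core, cap and activator genes on each array, with group mean and SD (n = 4). Core and cap medians lie close to zero on all arrays, and the 3 activators lie lowest on the Sharp1 arrays.

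The direct comparison of Sharp1 with HIF-depleted cells called 9 members higher and 9 lower in Sharp1, or 51.4%, where 38.4% of all genes and 65.2% of the genes with a mean of at least 9 were called. The median difference was -0.04 over the members, -0.06 over all genes and -0.001 over the genes with a mean of at least 9. With arrays centred, 10 were higher and 5 lower. Among all genes 18% were higher and 20.4% lower, and 2.42% reached 2-fold with a call, which no member did. Groups did not overlap for 14 members (40.0%), against 35.4% and 59.3%. This comparison shares its arrays with those above. In the core 1 gene was higher (PSMB4, 0.12) and 6 were lower (46.7% called). In the cap 7 were higher and 1 was lower (47.1%). With arrays centred, the lower calls of PSMA5, PSMB5, PSMB6 and PSMD9 were lost (limma adjusted p = 0.155, 0.180, 0.130 and 0.0911). PSMD6, a higher cap gene (0.08, adjusted p = 0.0476), lost its call without any 1 of the Sharp1 arrays, with 0.110 without D. PSMD10 led the rises, followed by PSME4 (0.27, adjusted p = 6.06e-05), PSMC1 (0.20, adjusted p = 0.000245), PSMC3 and PSMD5. PSMC3 differed by 0.20 and lost its call without shHIF A (adjusted p = 0.0533) or Sharp1 B (adjusted p = 0.0975). PSMD2 was 0.18 higher (adjusted p = 0.000478). PSME3 (-0.39, adjusted p = 2.31e-06), PSME1 (-0.34, adjusted p = 2.30e-08), PSMB10 (-0.32), PSMB3 (-0.18, adjusted p = 2.63e-05) and PSMA4 (-0.16, adjusted p = 0.000559) led the falls. In Sharp1, PSMB3 read 12.49, 12.49, 12.48 and 12.45. Arrays A to C lay inside the control range, and array D lay below its lowest value (12.453 against 12.461). The 3 genes with CACGTG in their windows differed from control in Sharp1 cells by -0.03 (PSMB3), -0.08 (PSMD9) and -0.17 (PSME3). These are the brightest probe sets, on which PSMB3 and PSMD9 were not called (limma adjusted p = 0.629 and 0.140). The other PSMD9 probe set rose by 0.28, and the other PSME3 probe sets differed by -0.16, -0.01 and 0.0004. The median over all 35 members was -0.01, and a part of CACGTG in these differences was not tested.

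Probe sets of 1 gene did not always move together. Of 67 member probe sets, 13 were called higher and 9 lower in Sharp1 against control (18.1% of all 54613 probe sets were called), 11 and 10 in shHIF (22.2%), and 19 and 10 in Sharp1 against shHIF (29.1%). These shares cover all probe sets, whose median was 5.41. A share over bright probe sets alone was not taken, so the counts are not read as a difference from background. PSMA5, an alpha subunit, read 12.19 to 12.39 on all 12 arrays on its brightest probe set and was not called against control. Its second probe set was dim. It read 5.80, 5.86, 6.02 and 6.06 in control, 5.26, 5.11, 5.40 and 5.51 in shHIF and 6.64, 6.71, 6.80 and 6.74 in Sharp1. These groups did not overlap, and the probe set was 0.79 higher in Sharp1 and 0.62 lower in shHIF than control (limma adjusted p over all probe sets 9.65e-07 and 2.88e-05).

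PSME4 in Sharp1 cells had 1 probe set called higher (0.31) and 1 called lower (-0.47) while the brightest was not called, so no direction is given for it there. PSMC2, an ATPase, differed by -0.08 on its brightest probe set and rose by 0.32 and 0.46 on the dimmer 2 in Sharp1 cells. PSMD9, a cap base chaperone, differed by -0.08 on the brightest and rose by 0.28 on the other. In Sharp1 against shHIF, PSMA5 and PSMD9 were counted among the 9 lower genes by their brightest probe sets (-0.11 and -0.12). Their second probe sets were higher there, by 1.40 (limma adjusted p = 3.19e-11) and 0.25 (adjusted p = 0.0160), so no direction is given for these genes in that comparison. The exons or transcript ends that these probe sets read were not analysed here.

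**Figure D4:**
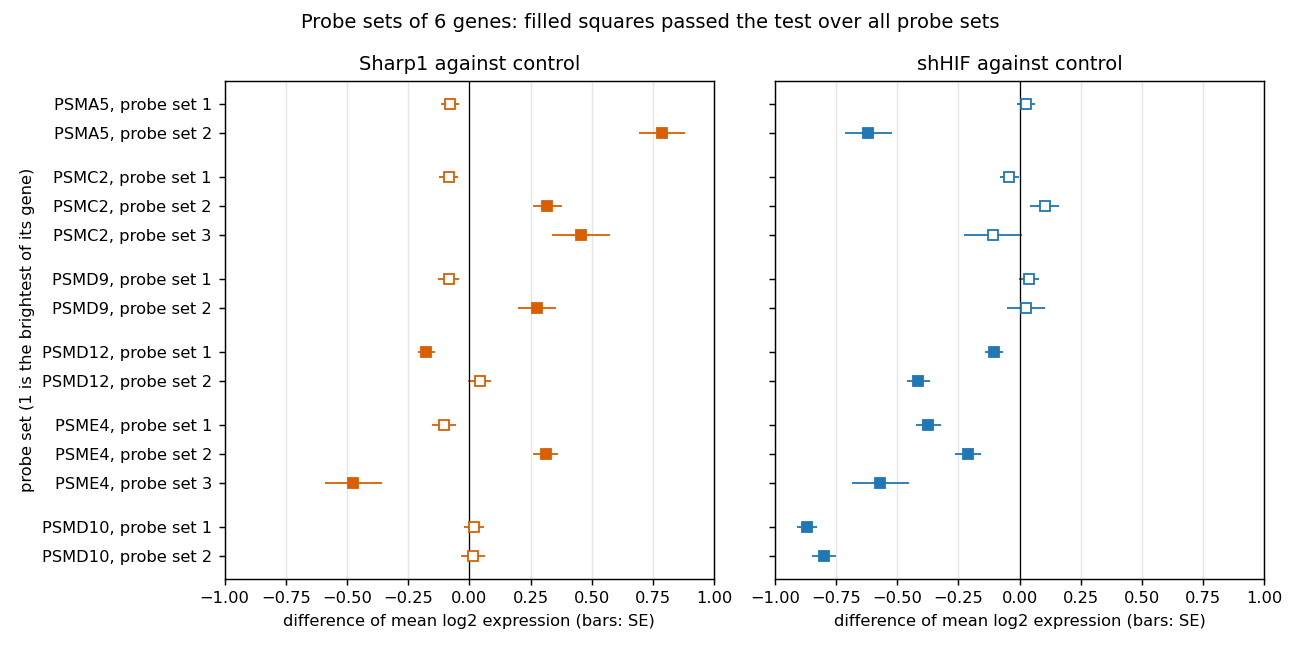
Difference of mean log2 expression from control on each probe set of 6 genes, numbered from the brightest, in Sharp1 (left) and shHIF (right). Bars are SE and filled squares had an adjusted p under 0.05 over all probe sets; both PSMD10 probe sets fell in shHIF, whereas PSMA5, PSMC2, PSMD9 and PSME4 had probe sets that differed from each other in Sharp1.

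Other genes of the pathway were read from fixed lists, beside the 27.2% of all genes and 49.4% of genes with a mean of at least 9 called in Sharp1 cells, and 30.8% and 55.2% in shHIF cells. No list is set apart from these shares by a test. Of 12 further subunits and bound proteins, 1 rose and 4 fell in Sharp1 cells, and 1 rose and 2 fell in shHIF cells. PITHD1 rose by 0.27 in Sharp1. UCHL5, a cap deubiquitinase, fell by 0.13 in Sharp1 and 0.25 in shHIF, USP14, another, fell by 0.11 in Sharp1, UBE3C, a ligase bound to the cap, rose by 0.19 in shHIF, and the thioredoxin-like TXNL1 fell there by 0.13. Of 5 core assembly chaperones, PSMG4 rose by 0.24 and PSMG1 fell by 0.15 in Sharp1, and 3 rose in shHIF, led by PSMG3 (0.39) and POMP (0.12).

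Of 6 measured genes of the list fixed for proteasome gene activation, 2 rose and 1 fell in Sharp1 cells. NFE2L1, the factor that raises subunit genes when the proteasome fails, rose by 0.18 (limma adjusted p = 0.00279), and its partners MAFF and MAFG rose by 0.73 and fell by 0.32. In shHIF cells NGLY1, which activates NFE2L1, rose by 0.15. In the same cells 3 genes of the list fell, led by MAFF, which fell by 0.23, and NRF1, which fell by 0.19. NRF1 is the symbol of nuclear respiratory factor 1, another gene than NFE2L1. Its fall is not read as that of a proteasome gene activator. Of 10 shuttle and segregase genes, 3 rose in Sharp1, led by UBQLN4 (0.24) and NPLOC4 (0.17). In shHIF, 2 rose (UFD1, 0.18, and VCP, 0.12) and 3 fell. Among the falls were RAD23B and UBQLN1, which carry ubiquitinated proteins to the cap, at -0.53 and -0.49. Of 3 measured ubiquitin and E1 genes, UBA1 rose by 0.30 in Sharp1 and 0.17 in shHIF, and UBA6 fell by 0.32 in shHIF. Of 6 measured VHL ligase genes, NEDD8 rose by 0.22 and ELOB fell by 0.16 in Sharp1. In shHIF 3 rose, among them ELOC (0.19) and NEDD8 (0.18). VHL itself differed by -0.16 (adjusted p = 0.205) and -0.01.

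Of 10 measured genes of immune peptide supply, 6 fell and 0 rose in Sharp1 cells (0 rose also at limma's unadjusted p under 0.05), and 6 rose and 2 fell in shHIF cells (median differences -0.17 and 0.19, against -0.002 and 0.05 over all genes). The inducible subunits PSMB9 and PSMB8 fell by 1.13 and 0.43 in Sharp1 and rose by 0.53 and 0.52 in shHIF, and the transporter subunit TAP2 and the peptidase ERAP2 fell there by 0.80 and 0.26. Leukocyte markers were read beside these and PSMB10 and PSME1. Their mean level over 7 markers was 5.78 to 5.93 in control, 5.85 to 6.02 in shHIF and 5.01 to 5.20 in Sharp1. Of the 7, PTPRC rose and LAPTM5, HLA-DRA and LYZ fell in Sharp1, and 2 rose and 2 fell in shHIF. Of the 7, LAPTM5 (mean 8.25), HLA-DRA (6.65) and CD53 (5.42) read above the median probe set, and PTPRC (4.28), CD14 (4.67), CD3E (5.02) and LYZ (5.15) below it. Against the median over genes (6.59), only LAPTM5 and HLA-DRA read above. Of 10 luminal markers 2 rose and 3 fell in Sharp1, and of 8 fibroblast markers 2 rose. Their part in the differences of PSMB10 and PSME1 was not tested.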

How the data were processed

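Total RNA was extracted with Trizol and labelled with biotin, per the labels' protocols. The authors' deposited table holds log2 expression values, and the submitters' processing notes name RMA. No source used here gives its version. The values ran from 2.23 to 14.8 and were used as deposited. RMA makes the arrays share 1 distribution at the level of single probes, so that a change common to most genes would be mostly removed. The summarised values kept small shifts, with array medians from 5.39 to 5.44. The median difference of all genes in shHIF against control was 0.05, and 0.01 with quantile normalization over genes.

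After 62 control probe sets were left out, 41091 probe sets had a single symbol in the platform annotation, 1801 had several and 11721 were unlisted. Of the single-symbol probe sets, 41037 matched a RefSeq gene ID. Each of 19775 genes was read on its brightest probe set over the 12 arrays. limma 3.58.1 in R 4.3.3 was fitted with a mean per group over all 12 arrays and an intensity trend, with Benjamini-Hochberg adjustment over all genes and a threshold of 0.05. The procedure was tested on simulated data. No pair of arrays was identical. The number of arrays limits the precision.

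Members and lists were chosen with earlier results of these data known. Genes described were those called in a comparison, and pathway genes those with the largest called differences in each list. PSMD12, PSMA5, PSMC2 and PSMD9 probe sets and ATG4A were singled out after their values were seen. Neighbouring genes were read only for PSMD10, PSME4 and PSMB10, picked for their large changes. 21 alternatives were run.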

Additional observations from a re-analysis of the deposited data

Results flagged for a closer look

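In 105 groups of 4 arrays, 5 had an array set apart from the other 3 of its group by Dixon's criterion, and chance alone flags about 1 in 20. PSMA1 in shHIF read 12.67 on array C and 12.75 to 12.76 on the others. PSMA5 in Sharp1 read 12.26 on array C and 12.19 to 12.20 on the others. PSMA8, which lies below the median probe set, read 2.69 on control array C and 2.94 to 2.97 on the others. PSMD5 in shHIF read 10.06 on array D and 10.17 to 10.18 on the others. PSME3 in Sharp1 read 10.03 on array A and 10.13 to 10.14 on the others, and its call against control was lost without that array.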

How the results depend on the processing

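Of 189 checks of counts and medians, 179 stayed within their limits, and of 735 checks of 35 named results, 705 kept direction and call, 26 lost a call, 1 gained one and 3 reversed. Without the intensity trend, 3 genes were higher in Sharp1 against control, 3 were lower in shHIF against control, and 5 were higher and 5 lower in Sharp1 against shHIF. With the mean of a gene's probe sets, the median over members was -0.0061 in shHIF against control and 0.032 in Sharp1 against shHIF. PSMA3 in Sharp1 against control turned to 0.037 (limma adjusted p = 0.692), and in Sharp1 against shHIF PSMA5 turned to 0.65 (adjusted p = 1.56e-08) and PSMD9 to 0.064 (adjusted p = 0.327), through their dimmer probe sets. With arrays centred, 5 were lower in Sharp1 against shHIF and the median was -0.0044. Quantile normalization gave 5 higher and 9 lower in Sharp1 against control, in place of 7 and 6. Leaving out 1 array gave 5 to 10 lower in Sharp1 against shHIF, with 5 without Sharp1 D, and a median of -0.071 to -0.029, the former without shHIF A. Apart from the probe set means, the cause of these shifts was not tested.

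The replicate letters did not pair the arrays. Deviations of same-letter arrays correlated between -0.18 and 0.14, and 1 of 12 arrays correlated best with its own letter. With the replicate block, 7 members were higher and 5 lower in Sharp1, 7 and 5 in shHIF, and 8 and 8 in Sharp1 against shHIF. Differences near 0.1 on the log2 scale are close to the limit of what 4 arrays a group resolved here.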
